A study of Mus musculus with 3 samples.

Results

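Guidance ligands and their receptors steer growing axons and migrating cells, and 46 genes of these families were followed across the mouse gut primordia: 19 genes of the Eph and ephrin family, 15 semaphorins and their receptors, 5 Slit and Robo genes and 7 genes of netrin signalling. They are a chosen list of these families and not every member of them. The levels set no threshold for the list, but it was chosen with earlier results of these data known. Of the 46, 44 had at least 1 probe that could be named, and 2, Efna3 and Plxnd1, had none. They were set against the 16998 genes named in the series.

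Total RNA came from primordia of the intestine, the stomach and the esophagus of ICR mouse embryos at embryonic day 11.5, with no genetic change or treatment in any group. Each organ was represented by 1 array of a 1-colour Agilent expression design, so the values below have no replicate and no difference was tested. Whether a sample pooled several embryos is not stated in the sources used here. All arrays lay on 1 slide, and organ and slide position cannot be told apart. The submitters' extraction note names the stomach for every sample, so the organs are taken from the sample titles.

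Eph receptors are receptor tyrosine kinases that bind ephrins on the surface of neighbouring cells, and the pair sets boundaries and repels axons in many tissues. Class 3 semaphorins are secreted and act through neuropilins and plexins, Slits act through Robo receptors, and netrin-1 attracts through Dcc and neogenin or repels through the Unc5 receptors. In the developing gut, enteric neural crest cells and the axons of the vagus nerve read such cues, and mesenchyme, endothelium and epithelium also make and bind them. In a dissected organ, fewer cells of a type and less RNA per cell cannot be told apart.

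A level is the log2 fluorescence of a gene's probe minus the 75th percentile of its array, so 0 is that percentile. A difference is the log2 level in the first organ minus that in the second, and a gene was counted when it was at least 2-fold apart. The 75th percentile was 1023 fluorescence units in intestine, 334 in stomach and 393 in esophagus, and 74.0%, 67.9% and 69.3% of spots were well above background. Spike-in control spots had a median of 2.09 log2 units above that percentile in intestine, 2.99 in stomach and 2.98 in esophagus. Scaling to these spots, which was not done, would raise intestine relative to both other organs. Differences in which intestine was lower would shrink, and those in which it was higher would grow. As a measure of agreement between probes, those of the same gene gave differences with a median SD of 0.31 log2 units for intestine over stomach, 0.46 for intestine over esophagus and 0.25 for stomach over esophagus. These probes share the same arrays, so this SD leaves out variation between arrays, dissections and embryos. Organ markers went with the titles. All 5 intestinal markers, Cdx2 and Vil1 among them, exceeded both other organs by at least 4-fold in intestine, and 4 of 5 esophageal markers, Trp63 and Pax9 among them, did so in esophagus. Of the 5 stomach markers, 5 were lower in intestine than in stomach by at least 2-fold, and 4, Barx1 among them, exceeded their esophageal level in stomach by at least 2-fold.

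Most guidance genes were present in all 3 primordia. Of the 44 with a probe, 42 were well above background on every array. The exceptions were Dcc, a netrin receptor, which read −6.16 in intestine and −5.25 in stomach and was not well above background in esophagus, and Unc5d, which was well above background in intestine alone, at −6.36. At least 1 of the 3 comparisons reached 2-fold for 19 of the 43 members with a difference (44.2%), against 25.8% of 14065 genes. Of the other 25 members with a probe, Unc5d gave no difference in any comparison. The rest stayed within 2-fold, by the probe used, in every comparison that could be made.

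**Figure D1:**
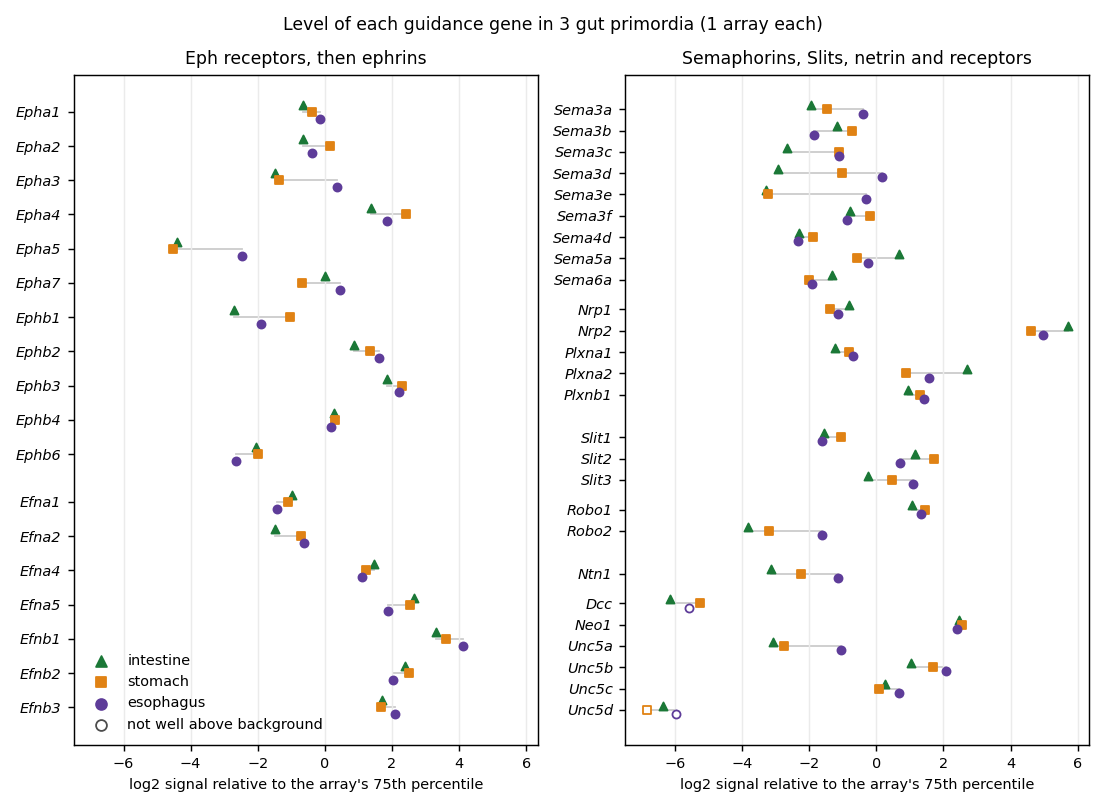
Level of each of the 44 guidance genes in intestine (triangles), stomach (squares) and esophagus (circles), as log2 signal relative to the array's 75th percentile; open symbols were not well above background, a grey line spans the 3 organs, and symbols are offset vertically for legibility. The esophagus symbol stands apart to the right for Epha3, Epha5, Sema3e, Robo2 and Unc5a, while the organs lie close together for Ephb4 and Neo1.

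The organ that stood out was the esophagus. Of 43 members, 8 were at least 2-fold higher in esophagus than in each of the other organs (18.6%), against 4.12% of all genes. Since the list was chosen with earlier results of these data known, such shares describe it and are no test. The 8 were the Eph receptors Epha3 and Epha5, the class 3 semaphorins Sema3a, Sema3d and Sema3e, the Slit receptor Robo2, the ligand Ntn1 and its receptor Unc5a, so each of the 4 families was represented. By family these were 2 of 18 Eph and ephrin genes, 3 of 14 semaphorin genes, 1 of 5 Slit and Robo genes and 2 of 7 netrin genes with a probe. Lower in esophagus than in both other organs, by at least 2-fold, were 0 members, against 2.11% of all genes.

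In the other organs the counts were small. In intestine 1 member, the semaphorin receptor Plxna2, exceeded each other organ by at least 2-fold, against 3.40% of all genes, and 2, Sema3c and Sema3d, were at least 2-fold lower, against 4.95%. In stomach 0 members were at least 2-fold higher than in each other organ and 0 were at least 2-fold lower, against 1.05% and 0.896% of all genes. The shares for intestine and stomach lie near those of all genes. With the background corrected by normexp instead, the esophageal count of members was 2, Epha3 and Sema3e, in place of 8, and that of all genes was 222 in place of 580.

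**Figure D2:**
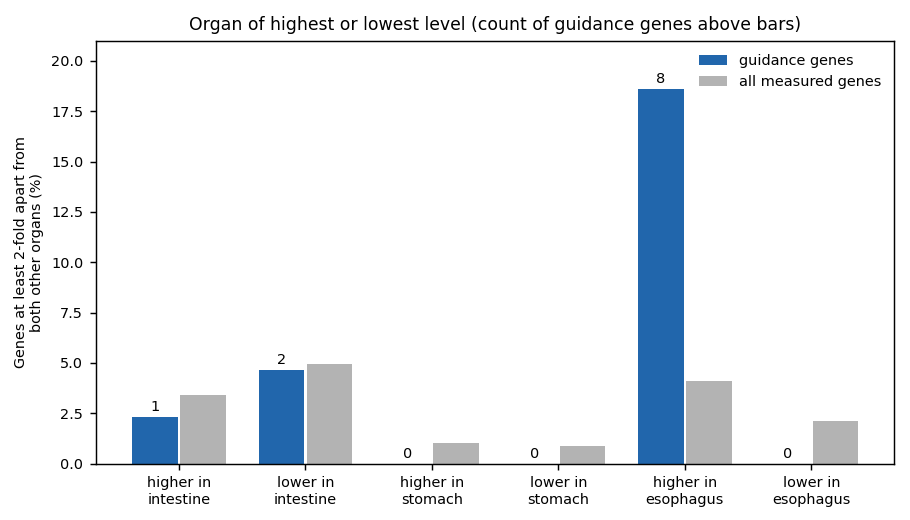
Percentage of genes at least 2-fold higher or lower in 1 organ than in both others, for the guidance genes with a difference (blue, 43 genes, count above each bar) and for all measured genes (grey, 14065 genes). The bar for guidance genes higher in esophagus, with 8 genes, stands above the grey bar beside it, and the others are at or below theirs.

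Markers of neighbouring organs differed between the samples as well. Markers of heart had a summed signal of 3.88 in intestine, 3.26 in stomach and 115 in esophagus, in units of the 75th percentile, and 8 of 8, Myh6, Tnnt2 and Myl7 among them, lay at least 4-fold below esophagus in both other organs. Markers of trachea and lung summed to 0.0598 in intestine, 0.550 in stomach and 9.44 in esophagus, and 5 of 5 lay at least 4-fold below esophagus in both other organs. Nkx2-1 and Sftpc were not well above background in intestine or stomach. Mesenchymal markers summed to 76.7, 81.2 and 120 in intestine, stomach and esophagus, with 2 of 5 at least 2-fold below esophagus in both other organs. The part of these tissues in the levels of the 8 guidance genes was not tested.

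Markers of neurons, crest cells and endothelium differed less in their sums. Neuronal markers summed to 17.3 in intestine, 19.4 in stomach and 13.1 in esophagus, and 5 of 11 measured, with Tubb3, Elavl4 and Stmn2 among them, exceeded esophagus in stomach by at least 2-fold, while 0 were lower by as much. Enteric neural crest markers summed to 14.9, 17.0 and 17.1 in intestine, stomach and esophagus, and Sox10 had no named probe. Of the 11 crest markers measured, 4 were at least 2-fold higher and 1 lower in stomach against esophagus, and 1 was higher and 2 were lower in intestine against esophagus. Endothelial markers summed to 31.4, 23.0 and 26.0, and 2 of 12, Tek among them, lay at least 2-fold below esophagus in stomach. Liver markers summed to 60.7 in intestine, 3.18 in stomach and 9.65 in esophagus, with 6 of 6 at least 4-fold above both other organs in intestine. Mesothelial markers summed to 3.26, 3.01 and 2.28 and epithelial markers to 46.2, 95.4 and 36.7 in intestine, stomach and esophagus. The part of these cells in the guidance values was not tested.

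**Figure D3:**
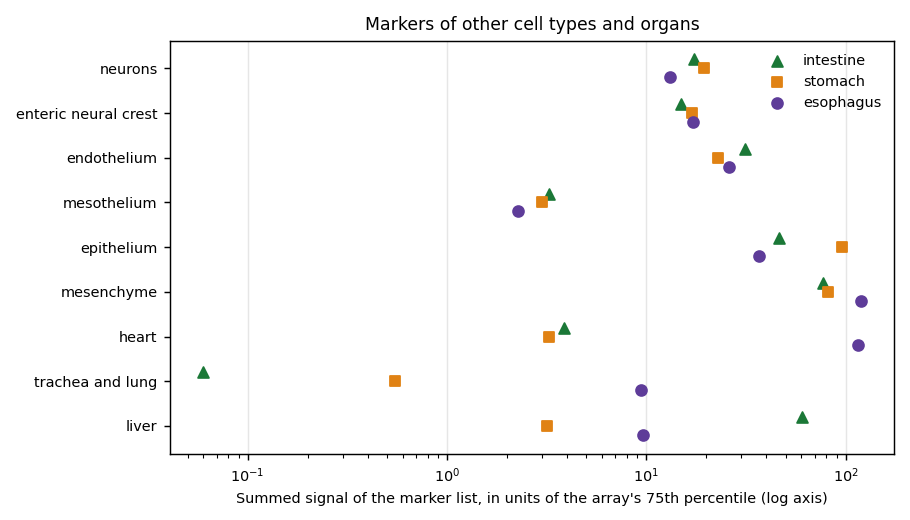
Summed signal of marker lists for other cell types and organs, in units of the array's 75th percentile on a log axis, in intestine (triangles), stomach (squares) and esophagus (circles). Heart and trachea and lung markers were highest in esophagus, at 115 and 9.44, and liver markers in intestine, at 60.7, while the neuronal, crest and endothelial sums lay closer together.

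Among the semaphorins, the class 3 genes carried the widest differences. Sema3e, a repellent for blood vessels and axons, read −3.29 in intestine, −3.22 in stomach and −0.30 in esophagus. Set against esophagus it was 7.95-fold lower in intestine and 7.54-fold lower in stomach, and its level in intestine and stomach differed by 1.05-fold by the probe used. All 3 probes of Sema3e were lower in stomach than in esophagus, by −3.45 to −2.66 log2 units, and the 2 probes measured in intestine gave −4.26 and −2.99 against esophagus. Those 2 gave −1.60 and −0.07 for intestine over stomach, so the closeness of these organs depends on the probe.

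Sema3d read −2.92 in intestine, −1.02 in stomach and 0.16 in esophagus. The 3 organs were graded, with intestine 8.47-fold below esophagus and 3.74-fold below stomach, and stomach 2.26-fold below esophagus. Sema3a, the founding secreted repellent of axons, read −1.96 in intestine, −1.47 in stomach and −0.41 in esophagus, which put it 2.93-fold lower in intestine and 2.08-fold lower in stomach than in esophagus. Its other probe gave −0.75 and −0.96. Under median centring and under quantile normalization the stomach difference of Sema3a fell short of 2-fold. After normexp correction stomach over esophagus was −0.80 for Sema3a and −0.87 for Sema3d, both short of 2-fold.

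Sema3c, which attracts some neurons and cardiac crest cells, stood at −2.67 in intestine, −1.12 in stomach and −1.12 in esophagus. It was thus low in intestine alone, 2.92-fold below each of the other organs. Sema3b ran the other way, at −1.16 in intestine, −0.74 in stomach and −1.86 in esophagus, with stomach 2.17-fold above esophagus. Sema3f, a ligand of Nrp2, stayed within 2-fold with −0.78, −0.19 and −0.88 in intestine, stomach and esophagus. Across the 6 class 3 genes measured, the median difference was −0.54 for intestine over stomach, −1.55 for intestine over esophagus and −0.53 for stomach over esophagus, against −0.02, 0.13 and 0.15 for all genes.

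In RefSeq's mouse gene table Sema3d and Sema3a are next to each other among protein-coding genes of chromosome 5, and 3 genes, Gm6647, Speer3 and Gm6650, lie between Sema3a and Sema3e. All 3 semaphorins of this stretch, whose ends are set by these genes themselves, were among the 8 genes highest in esophagus. Their promoters are printed beside those of Epha5 and Unc5a, from the Eph and netrin families of that group, and of Plxna2, the 1 member at least 2-fold above both other organs in intestine. Those of Epha3, Robo2 and Ntn1, also of that group, are not printed. Each is RefSeq's sequence of build GRCm38.p6 from 250 bases before to 50 bases after the annotated start, 5′ to 3′ on the gene's strand. Capitals mark matches on either strand to any of 6 short motifs, overlaps included. The motifs were the TATA box, spelled TATAAA, the CCAAT box, spelled by its name, the GC box, searched as GGGCGG, the E-box, searched as CANNTG, the core of the T-box element, searched as AGGTGT, and the forkhead site, searched as TGTTTAC.
Sema3d (chr5:12382916-12383215, plus strand): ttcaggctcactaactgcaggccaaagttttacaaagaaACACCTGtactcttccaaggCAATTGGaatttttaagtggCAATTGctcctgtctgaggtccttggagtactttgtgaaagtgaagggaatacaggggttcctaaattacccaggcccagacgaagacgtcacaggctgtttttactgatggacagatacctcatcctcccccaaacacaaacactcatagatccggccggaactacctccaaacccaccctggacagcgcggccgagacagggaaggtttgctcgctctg
Sema3a (chr5:13396534-13396833, plus strand): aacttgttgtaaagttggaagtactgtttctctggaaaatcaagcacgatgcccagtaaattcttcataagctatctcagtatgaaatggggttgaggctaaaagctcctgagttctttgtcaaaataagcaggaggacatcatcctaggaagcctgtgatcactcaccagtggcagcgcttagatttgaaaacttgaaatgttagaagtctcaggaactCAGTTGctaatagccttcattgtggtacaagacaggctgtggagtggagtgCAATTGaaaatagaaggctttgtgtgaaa
Sema3e (chr5:14025026-14025325, plus strand): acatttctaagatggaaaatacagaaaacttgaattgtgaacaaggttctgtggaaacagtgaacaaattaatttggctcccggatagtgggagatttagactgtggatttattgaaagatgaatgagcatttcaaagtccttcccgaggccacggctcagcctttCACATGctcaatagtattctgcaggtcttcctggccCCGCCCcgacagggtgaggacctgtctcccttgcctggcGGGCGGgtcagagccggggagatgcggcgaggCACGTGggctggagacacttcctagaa
Epha5 (chr5:84417333-84417632, minus strand): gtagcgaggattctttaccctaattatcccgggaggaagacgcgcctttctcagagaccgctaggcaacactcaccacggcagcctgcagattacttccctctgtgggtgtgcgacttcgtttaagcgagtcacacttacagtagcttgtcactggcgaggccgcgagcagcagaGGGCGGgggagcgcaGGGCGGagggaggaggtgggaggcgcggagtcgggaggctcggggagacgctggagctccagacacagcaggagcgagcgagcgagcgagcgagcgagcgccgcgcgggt
Unc5a (chr13:54949161-54949460, plus strand): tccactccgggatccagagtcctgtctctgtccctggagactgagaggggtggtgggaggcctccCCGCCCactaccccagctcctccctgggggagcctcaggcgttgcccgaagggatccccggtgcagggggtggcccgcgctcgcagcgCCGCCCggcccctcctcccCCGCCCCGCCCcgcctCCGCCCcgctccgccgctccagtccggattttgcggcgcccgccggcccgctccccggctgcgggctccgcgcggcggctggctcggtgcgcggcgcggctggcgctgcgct
Plxna2 (chr1:194619579-194619878, plus strand): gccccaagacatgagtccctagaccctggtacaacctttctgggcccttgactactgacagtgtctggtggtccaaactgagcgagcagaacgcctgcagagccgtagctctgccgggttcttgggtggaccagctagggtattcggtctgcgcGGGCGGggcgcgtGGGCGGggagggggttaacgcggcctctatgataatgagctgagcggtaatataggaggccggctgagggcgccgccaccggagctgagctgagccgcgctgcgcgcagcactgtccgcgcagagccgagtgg

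The promoters of the semaphorin stretch differed in base composition from the rest of those printed. Sema3d, Sema3a and Sema3e had a GC content of 49.7%, 41.3% and 50.7% and 8, 2 and 11 CpG dinucleotides, while Epha5, Unc5a and Plxna2 had 64.3%, 78.3% and 64.7% with 30, 37 and 25. The median over 32851 promoters was 52.7% and 7. GC boxes occurred 2 times in Sema3e, 2 times in Epha5, 5 times in Unc5a, where an adjacent pair overlaps, and 2 times in Plxna2, and 0 times in Sema3d and Sema3a. The semaphorin promoters held 3, 2 and 2 E-boxes for Sema3d, Sema3a and Sema3e, and the other promoters printed held 0. Sema3d also had 1 CCAAT match, which overlaps an E-box, and 1 T-box core, which overlaps another E-box. Of all promoters, 35.7% held a GC box, 72.3% an E-box, 37.4% a CCAAT match, 13.7% a T-box core, 13.6% a TATA box and 3.65% the forkhead site. Of 44 promoters of 37 members, 68.2% held a GC box and 43.2% an E-box. These matches are letters in a window and not sites shown to be used.

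The remaining semaphorin ligands varied less. Sema5a, a transmembrane semaphorin, read 0.67 in intestine, −0.58 in stomach and −0.25 in esophagus, with intestine 2.39-fold above stomach. Its other probe gave −0.10 for that comparison and −1.57 for intestine over esophagus, where the probe used gave 0.92. Sema4d and Sema6a stayed within 2-fold by the probes used, and the probes of Sema6a disagreed, at 0.70 and −1.22 for intestine over stomach.

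Of the 5 semaphorin receptors measured, 3 had a positive and 2 a negative difference for intestine over stomach, and likewise for intestine over esophagus. Plxna2, a plexin that transmits class 3 and class 6 semaphorin signals, read 2.70 in intestine, 0.88 in stomach and 1.57 in esophagus. Intestine lay 3.54-fold above stomach and 2.20-fold above esophagus. All 3 of its probes were higher in intestine, by 1.15 to 1.82 log2 units over stomach and by 0.52 to 1.26 over esophagus. Nrp2, the neuropilin that binds Sema3f and Sema3c, read 5.72 in intestine, 4.60 in stomach and 4.96 in esophagus, with intestine 2.17-fold above stomach. Nrp1, the neuropilin of Sema3a, lay within 2-fold at −0.81, −1.39 and −1.15 in intestine, stomach and esophagus. Plxna1 and Plxnb1 also stayed within 2-fold, both with a negative difference in intestine against each other organ by the probe used, and Plxnd1, the receptor of Sema3e, had no named probe.

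Of the 11 Eph receptors measured, 2 were at least 2-fold higher in esophagus than in both other organs. Epha3 read −1.50 in intestine, −1.37 in stomach and 0.36 in esophagus, 3.63-fold lower in intestine and 3.32-fold lower in stomach than in esophagus. Its other probe gave −2.21 and −2.06. Epha5 read −4.42 in intestine, −4.52 in stomach and −2.47 in esophagus, 3.86-fold and 4.14-fold lower in intestine and stomach than in esophagus, and its other probe was not well above background on any array. In both genes intestine and stomach lay close together and esophagus apart by these values. After normexp correction Epha3 gave −1.25 for stomach over esophagus and −0.34 for intestine over stomach. Epha5 then gave −0.61 and −0.85, so its stomach level no longer lay close to that of intestine.

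Epha7 was low in stomach, with −0.01 in intestine, −0.69 in stomach and 0.44 in esophagus, and was 2.19-fold lower in stomach than in esophagus. Epha4, a receptor that binds ephrins of both classes, was highest in stomach, with 1.39 in intestine, 2.43 in stomach and 1.85 in esophagus. Intestine lay 2.06-fold below stomach, and its other probe gave −0.62. Ephb1, a receptor of B-class ephrins, followed the same order at −2.72 in intestine, −1.03 in stomach and −1.90 in esophagus, which made it 3.24-fold lower in intestine than in stomach.

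The other Eph receptors measured, Epha1, Epha2, Ephb2, Ephb3, Ephb4 and Ephb6, were within 2-fold throughout by the probe used. The other probe of Ephb2 gave −1.73 for intestine over esophagus and −1.27 for intestine over stomach. Ephb4, the venous receptor of Efnb2, read 0.27 in intestine, 0.31 in stomach and 0.17 in esophagus.

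None of the 7 ephrins measured reached 2-fold in a comparison by the probe used. Their differences ran from −0.78 to 0.23 for intestine over stomach, from −0.88 to 0.79 for intestine over esophagus and from −0.51 to 0.66 for stomach over esophagus. Efnb1, a B-class ephrin, read 3.30 in intestine, 3.60 in stomach and 4.11 in esophagus. Efna5, a ligand of Epha3 and Epha5, read 2.67, 2.54 and 1.88 in intestine, stomach and esophagus by the probe used. The second probe of Efna5 disagreed, with −1.59 for intestine over esophagus against 0.79. Efnb2, the arterial ephrin, stood at 0.36 for that comparison by the probe used and at −1.93 by the other.

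In the Slit family the ligands and receptors did not share a pattern. Slit2 read 1.15 in intestine, 1.71 in stomach and 0.70 in esophagus, 2.01-fold higher in stomach than in esophagus, with 0.49 by its other probe. Slit3 was graded, with −0.24 in intestine, 0.46 in stomach and 1.08 in esophagus, with intestine 2.49-fold below esophagus. Slit1 stayed within 2-fold. Of the receptors, Robo2 read −3.82 in intestine, −3.21 in stomach and −1.63 in esophagus, 4.56-fold lower in intestine and 2.98-fold lower in stomach than in esophagus, and its other probe gave −1.36 and −1.49. After normexp correction Robo2 gave −0.86 for stomach over esophagus, short of 2-fold. Robo1 was even, at 1.07, 1.45 and 1.32 in intestine, stomach and esophagus. All 5 Slit and Robo genes had a negative difference for intestine over stomach, from −0.70 to −0.39, beside 7164 of 13820 genes measured.

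Of the netrin genes, 2 were at least 2-fold higher in esophagus than in both other organs, the ligand Ntn1 and the receptor Unc5a. Ntn1 read −3.13 in intestine, −2.24 in stomach and −1.13 in esophagus, 3.99-fold lower in intestine and 2.16-fold lower in stomach than in esophagus. Its other probe gave −1.01 for stomach over esophagus but 0.37 for intestine over esophagus and 1.38 for intestine over stomach, so the intestinal level of Ntn1 depends on the probe. Unc5a read −3.07 in intestine, −2.74 in stomach and −1.06 in esophagus, 4.03-fold and 3.21-fold lower in intestine and stomach than in esophagus. After normexp correction stomach over esophagus was −0.66 for Ntn1 and −0.86 for Unc5a, both short of 2-fold.

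Unc5b, which is also found on endothelium, was graded at 1.02 in intestine, 1.69 in stomach and 2.07 in esophagus, with intestine 2.07-fold below esophagus. Unc5c (0.27, 0.07 and 0.68 in intestine, stomach and esophagus) was within 2-fold. Neo1, the neogenin receptor of netrins and of Rgm proteins, read 2.45, 2.55 and 2.41 by the probe used.

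Counted by comparison, more of the members at least 2-fold apart from esophagus were lower than higher. For stomach over esophagus, 9 of 43 members were at least 2-fold lower and 2 at least 2-fold higher, where 5.71% and 4.14% of all genes were. At the 4-fold mark 2 were lower, Epha5 and Sema3e, against 1.58% of all genes, and 0 were higher, against 0.684%. With normexp correction 2 members were at least 2-fold lower and 0 higher, beside 2.0% and 1.19% of all genes.

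For intestine over esophagus, 11 of 42 members were at least 2-fold lower and 1 at least 2-fold higher, where 12.0% and 8.74% of all genes were. At least 4-fold lower were 4, namely Sema3d, Sema3e, Robo2 and Unc5a, against 3.85% of all genes, and 0 were at least 4-fold higher, against 1.82%. Normexp correction gave 10 lower and 1 higher, beside 13.1% and 4.91% of all genes. The median difference of the members was −0.40 and that of all genes 0.13, and under median centring these were −0.25 and 0.27. The split of all genes turned with the scaling: under quantile normalization 13.1% were higher and 9.47% lower, where the members still numbered 1 higher and 11 lower. Among the members called, 16.7% were higher under median centring, against 8.33% without it.

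For intestine over stomach, 4 of 43 members were at least 2-fold lower, namely Epha4, Ephb1, Sema3c and Sema3d, and 3 were at least 2-fold higher, namely Nrp2, Plxna2 and Sema5a. Of all genes 7.47% and 4.96% were, so these shares lie near the background. At the 4-fold mark 0 were higher and 0 lower, against 1.43% and 1.29% of all genes. Although few reached 2-fold, 31 of 43 members had a negative difference, beside 7164 of 13820 genes measured. The median was −0.33 for the members and −0.02 for all genes. The comparisons share arrays, so their counts are not independent of one another.

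**Figure D4:**
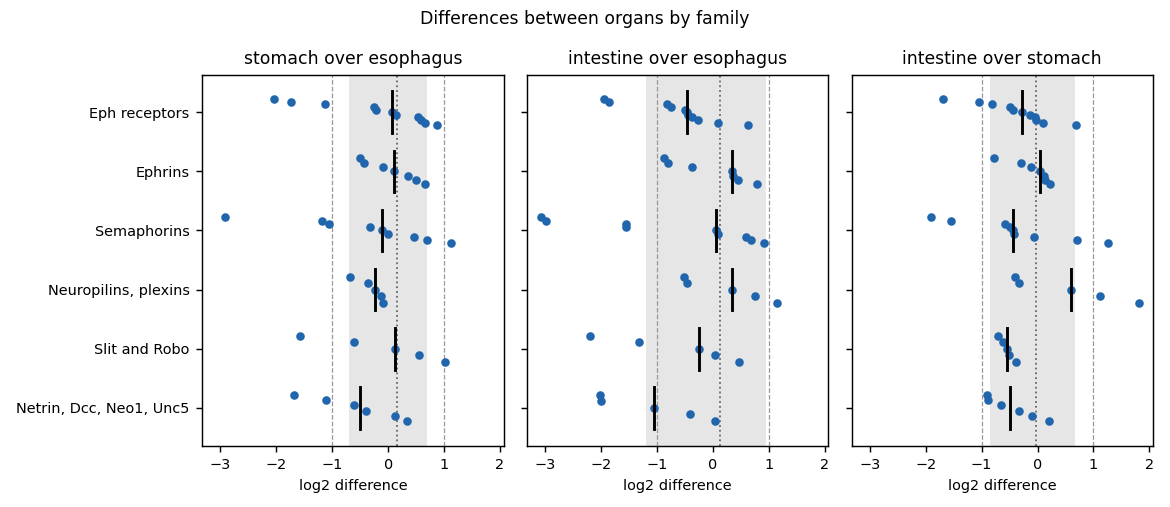
Log2 difference of each guidance gene in the 3 comparisons, by family, with a black bar at the family's median. The grey band holds the central 80% of all measured genes, the dotted line is their median and the dashed lines mark 2-fold; left of the lower dashed line in the panels against esophagus lie Eph receptors, semaphorins, Robo2, Slit3 and netrin genes, and no ephrin, neuropilin or plexin.

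Agreement between probes bounds these readings. Of the 17 members with 2 or more probes well above background in a comparison, 5 of 51 gene comparisons had probes on opposite sides of 0 by over 0.5 log2 units each, those of Efna5, Sema5a, Sema6a and Ntn1. Of the 30 differences of at least 2-fold, 15 had a second measured probe, and in 13 of these every probe had the same sign. The exceptions were Sema5a for intestine over stomach and Ntn1 for intestine over esophagus.

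**Figure D5:**
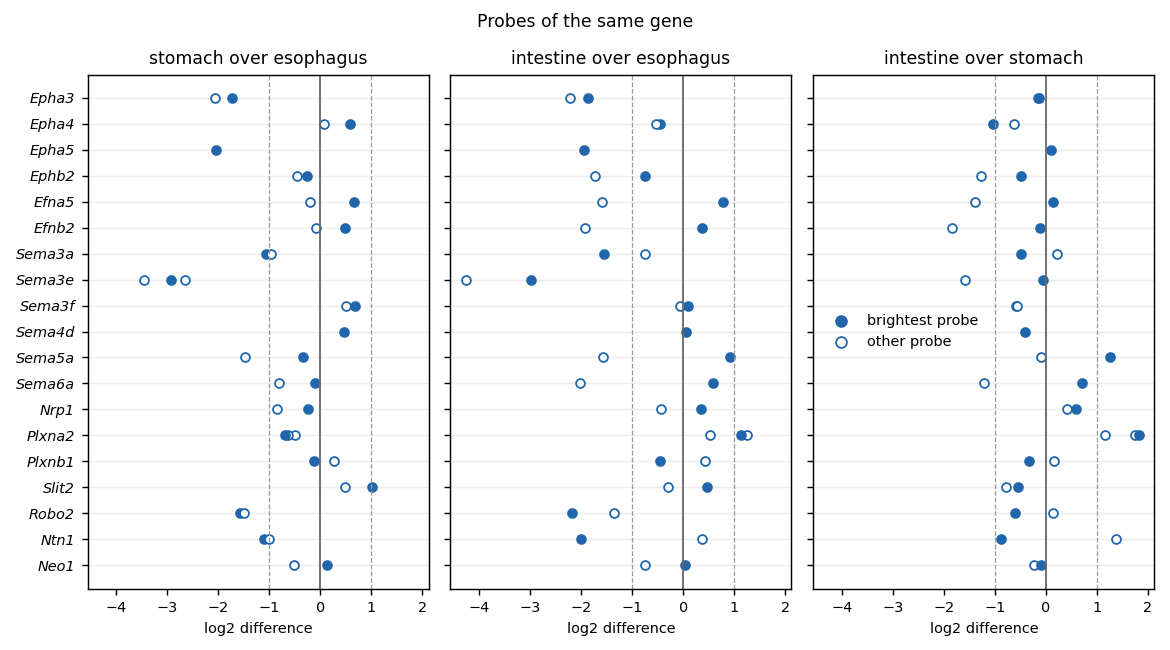
Log2 difference given by each probe that was well above background on both arrays, for members with more than 1 probe; filled circles are the brightest probe, used for the counts, and open circles the other probes, with dashed lines at 2-fold. The probes of Epha3, Sema3e and Robo2 agree in sign against esophagus, and those of Efna5, Sema5a, Sema6a and Ntn1 lie over 0.5 log2 units on either side of 0 in a comparison that involves intestine.

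Other genes of these pathways were set beside the members. Of 33 further ligands and receptors listed, 29 had a probe. For intestine over esophagus 6 of 25 measured were at least 2-fold lower and 2 higher, where 12.0% and 8.74% of all genes were. For stomach over esophagus 3 of 24 were lower and 2 higher, beside 5.71% and 4.14% of all genes, and for intestine over stomach 5 of 23 were lower and 2 higher, beside 7.47% and 4.96%. Plxnc1, a plexin of Sema7a, read −5.13 in intestine, −3.35 in stomach and −1.65 in esophagus, 11.1-fold lower in intestine and 3.24-fold lower in stomach than in esophagus. Flrt1, of a family that binds Unc5 and latrophilin receptors, read −5.49 in intestine, −3.28 in stomach and −3.87 in esophagus, with intestine 4.62-fold below stomach.

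Among 41 cytoplasmic effectors with a probe, 35 were within 2-fold for intestine over esophagus, beside 11024 of 13905 genes measured. The medians of the effectors were 0.06 for that comparison, 0.03 for stomach over esophagus and −0.04 for intestine over stomach. Mical2, an actin-oxidising enzyme of the family that acts below plexins and is also found in muscle, read −3.38 in intestine, −2.54 in stomach and −0.21 in esophagus, 9.03-fold and 5.04-fold lower in intestine and stomach than in esophagus. Ablim3, an actin-binding LIM protein, read −5.98, −2.65 and −0.91 in intestine, stomach and esophagus by the probe used, but another probe gave 0.58 for intestine over esophagus and 1.29 for stomach over esophagus.

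Of the axon adhesion molecules, Alcam read 0.23 in intestine, 1.39 in stomach and 2.50 in esophagus with intestine 4.80-fold below esophagus. For that comparison 8 of the 10 were within 2-fold, a share near that of all genes (11024 of 13905). Cues of the enteric nervous system went both ways. Gdnf, the Ret ligand that attracts enteric crest cells, read −1.09 in intestine, −1.73 in stomach and −3.66 in esophagus, 5.93-fold higher in intestine and 3.81-fold higher in stomach than in esophagus. Edn3, the ligand of Ednrb, read −1.42 in intestine, −3.48 in stomach and −3.10 in esophagus with intestine 4.16-fold above stomach, and 1.77 by its other probe. Gfra2, the co-receptor of neurturin, read −4.04 in esophagus and was not well above background in intestine or stomach, a bound of at least 5.94-fold lower in intestine and at least 3.49-fold lower in stomach. Bmp2, a secreted growth factor, read −4.74 in intestine and −3.25 in esophagus, was not well above background in stomach, and was at least 5.77-fold lower in stomach than in esophagus.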

How the data were processed

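Cy3-labelled RNA of 1 sample per organ was scanned and quantified, per the file headers by version 10.5.1.1 of Feature Extraction. The deposited processed signal is an intensity after background subtraction and detrending within the array, per the file headers, and was not scaled between arrays. The authors' deposited value table holds log2 signals relative to each array's 75th percentile, without centring of probes. Its medians were −3.46 in intestine, −3.16 in stomach and −2.96 in esophagus, and once shifted by 1 constant per array, 99.9% of its probes matched the scanner values to within 0.05 log2 units. It served as an alternative.

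Control spots and outlier flags were left out, and the processed signal was divided by the array's 75th percentile, taken to log2 and averaged over the spots of a probe (41112 probes). Probes were named by their transcript accession through RefSeq's GRCm38.p6 table, used for names and gene order. No gene-name column was present in the scanner files. A gene was represented by its brightest probe over the arrays. It entered a comparison when either array of the pair showed it well above background. A dim side was then set to its own signal or to the lowest such signal of that array, whichever was higher, which makes the fold a bound, and no value was given where the bound was under 1-fold. Each member's probe was printed as 1 spot. Spots of probes printed 10 times varied with median SDs of 0.077, 0.089 and 0.104 (log2) in intestine, stomach and esophagus.

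With 1 array per organ no test was possible, and members are described by counts and medians beside those of all genes. Named are the members at least 2-fold apart in a comparison, with the rest by range, and genes of the other lists at least 4-fold apart. The members and lists were chosen with earlier results of these data known. The 7 alternatives were normexp correction (limma 3.58.1, offset 50, on spot and background medians, since no mean signal was present), the deposited table, quantile normalization, median centring, no filter on dim probes, a filter on both arrays and the mean over probes. None of them scaled the arrays to the spike-in controls. The counting steps were tested on simulated data.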

Additional observations from a re-analysis of the deposited data

How the results depend on the processing

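With 1 array per organ, no direction here has a replicate check, and signal over background limits dim members such as Dcc and Unc5d. It also limits members among the 8 highest in esophagus. In stomach Epha5 had 14.6 fluorescence units, Sema3e 36.0, Robo2 36.1, Unc5a 49.9 and Ntn1 70.7, while Sema3a, Epha3 and Sema3d had 121, 129 and 165. No paired analysis was possible because each organ has 1 array, and the shared number in the titles leaves no residual degrees of freedom. Of the 30 member differences of at least 2-fold, 0 changed sign under the 7 alternatives, and 30 still reached 2-fold with the deposited table, without the filter on dim probes and with the filter on both arrays, 28 under quantile normalization, 27 under median centring, 25 with the mean over probes and 19 after normexp correction.

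For stomach over esophagus, normexp correction left 2 members at least 2-fold apart (11 in the values above), 2 lower and 0 higher, and 0 at least 4-fold lower, where quantile normalization and median centring each left 1. The mean over probes gave 1 member at least 2-fold higher in place of 2. For intestine over esophagus, median centring gave 2 members at least 2-fold higher and the mean over probes 0, in place of 1, and normexp correction and quantile normalization each gave 2 at least 4-fold lower in place of 4. Highest in esophagus by at least 2-fold were 8 members with the deposited table and with either change of the filter, 7 of the same 8 under quantile normalization, median centring and the mean over probes, and 2 after normexp correction. The counts of all genes beside these were 580 in the values above, 474 under quantile normalization, 488 under median centring, 584 with the mean over probes and 222 after normexp correction. Highest in stomach was 1 under quantile normalization in place of 0, and highest in intestine were 2 under median centring and 0 with the mean over probes in place of 1. The other counts and the medians moved little, and the cause of these changes was not tested.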

Other observations

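Around the stretch that holds Sema3d, Sema3a and Sema3e, the named protein-coding genes did not all share their esophageal level. Beyond Sema3e, Pclo was not well above background on any array, Cacna2d1 read −0.01 in intestine, −0.26 in stomach and −0.02 in esophagus, and Hgf, a growth factor of mesenchyme, read −3.76, −4.72 and −1.38 in intestine, stomach and esophagus, with differences of −2.37 for intestine over esophagus and −3.34 for stomach over esophagus. On the other side Grm3 was well above background in esophagus alone, at −5.15, with bounds of −1.82 and −0.68 for those comparisons, and Elapor2 stood at −0.66 and −0.28. Further out on that side, Dmtf1 stood at 0.62 and −0.10 and Tmem243 at 0.83 and 1.08. These neighbours were looked up after the semaphorin values were seen.

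Where a gene had several measured probes, the dimmest probe of a guidance gene tended to read lower against esophagus than the brightest. The median of that gap was −0.75 log2 units for intestine over esophagus over 17 members, with 12 of 17 negative, beside −0.16 over all genes with several probes. It was −0.50 for stomach over esophagus, beside −0.15, and −0.14 for intestine over stomach, beside −0.03. The gap is a description of these arrays, and its part in the counts was not tested.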
